A study of Mus musculus with 8 samples.

Results

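The polyadenylation and deadenylation machinery comprised 39 genes whose products make, bind or shorten the poly(A) tail of mRNA. They were chosen by name, as the poly(A) polymerases, the cleavage and polyadenylation complexes, the poly(A) binding proteins and the deadenylases. The rule itself uses no measured value, but earlier results of these data were known when the genes were chosen. All 39 were found under these names on the array, as 55 of 55681 probes. Tests were limited to probes with signal well above background throughout at least 1 group, which held for 52 of the 55 probes and for 38 of the 39 genes, among 30859 probes tested in all. The exception was Papolb, a poly(A) polymerase known from testis, which was not well above background on any of the 8 arrays. A further probe each of Cnot2 and Cnot4 was above background on only 1 array and was left out.

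RNA came from NIH3T3, a mouse fibroblast line derived from embryos and immortalised in culture, on 1-colour arrays. In all groups, cells were grown in 10% newborn bovine serum on 15 cm plates and then held in 0.5% serum for 24 h. The group called cordycepin plus serum (3 arrays) received 20 µM cordycepin in DMSO, followed after 60 min by serum, and was collected after 30 min in serum and 90 min in cordycepin. The group called serum (3 arrays) received 0.1% DMSO in place of cordycepin and the same serum, and the group called no serum (2 arrays) received no serum addition. The labels do not say whether the latter received DMSO. Cordycepin in the absence of serum was not analysed here, so each effect of cordycepin was measured in the presence of serum. Nothing in the labels says that arrays of a group came from separate cultures, so the p-values measure the spread between these arrays, which may be technical. In such RNA from whole cultures, fewer cells expressing a gene and less RNA per cell cannot be told apart.

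An mRNA receives its tail in the nucleus, where the cleavage and polyadenylation specificity factor (CPSF) reads a hexamer such as AAUAAA and cuts the transcript, helped by the cleavage stimulation factor (CstF) and the cleavage factors Im and IIm, after which a poly(A) polymerase adds adenosines. Many genes hold more than one such site, so that upstream sites, some inside introns, give shorter transcripts that share only the first part of the gene. In the cytoplasm the tail is bound by Pabpc proteins and is removed by the PAN2-PAN3 and CCR4-NOT deadenylases. Cordycepin is 3′-deoxyadenosine, and its triphosphate is known as a chain terminator of polyadenylation because it lacks the 3′ hydroxyl needed for adding another nucleotide. The labelling kit primes cDNA from poly(A) tails, so the signal depends on tailed RNA.

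Levels are given as log2 signal after subtraction of the array's own 75th percentile, which was between 302.2 and 692 units of intensity. From 51.1% to 57.1% of probes exceeded background clearly, and within groups r across probes was 0.992 to 0.995. Serum acted on these cells, as Fos rose by 4.86 ± 0.28 (SE) and Egr1 by 1.52 ± 0.14 on the log2 scale with serum (limma adjusted p 0.000172 and 0.00148), and both were lower with cordycepin, at −1.64 ± 0.25 and −1.40 ± 0.12 (adjusted p 0.00239 and 0.000125). Of the 4 listed serum response genes, Fos, Egr1, Jun and Myc, 3 were called higher with serum and 4 lower with cordycepin against serum. With cordycepin plus serum against no serum, 1 of the 4 was called higher and 1 lower. All 10 fibroblast markers were above background on every array and none was called in any comparison. Of 5 leukocyte markers, the lysosomal gene Cd68 and the integrin Itgam were higher with cordycepin by 3.02 ± 0.21 and 0.62 ± 0.15 (adjusted p 4.79e-05 and 0.0219), and the summed linear level of the list was 31.1 to 39.2 with cordycepin, 17.6 to 20.2 with serum and 16.2 to 21.3 without serum. Of the defining leukocyte genes, Ptprc was well above background on 3 of the 8 arrays and Adgre1 on 1 of the 8, whereas the T cell gene Cd3e was so on all 8 and differed by 0.12 ± 0.19 with cordycepin (adjusted p 0.714). Of 5 adipocyte markers, Adipoq was higher by 2.49 ± 0.41 (adjusted p 0.00335), at a summed level of the list of 0.359 to 0.523 with cordycepin and 0.273 to 0.379 in the other groups. No epithelial or endothelial marker was called with cordycepin against serum. Of 6 endothelial markers, 4 were well above background on every array. Among these 4, 1 was called lower with cordycepin plus serum against no serum. The part of these markers in the results below was not tested.

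To ask whether cordycepin altered the mRNAs of this machinery, cordycepin plus serum was compared with serum. Each gene was first represented by its brightest tested probe. With cordycepin, 2 of the 38 genes were called higher, Rbbp6 and Pabpn1, and 1 was called lower, Papolg, at a limma adjusted p under 0.05 over all probes tested. Among all 13421 RefSeq mRNA genes treated in the same way, 6.29% were called higher and 8.13% lower. Only Papolg changed by at least 2-fold, 1 gene of 38, where the same rule called 6.19% of the RefSeq mRNA genes. Among the 6710 RefSeq mRNA genes above their median level, 1.88% were called higher, 6.97% lower and 2.15% with at least 2-fold change. The median change of the 38 genes was 0.03 on the log2 scale, beside 0.05 for the RefSeq mRNA genes. The 95% interval of the change lay within 2-fold in either direction for 37 of the 38 genes. The share was 85.7% for RefSeq mRNA genes and 94.8% for those above their median level. Centring the arrays on 8 spike-in probes in place of the 75th percentile, or testing every probe without a filter, left Papolg as the single gene called. With the mean of a gene's tested probes, 1 gene was higher, Pabpn1, and 3 were lower, Papolg, Rbbp6 and Cstf3, and the direction of Rbbp6 was turned, at −0.44 ± 0.12 (adjusted p 0.034).

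**Figure D1:**
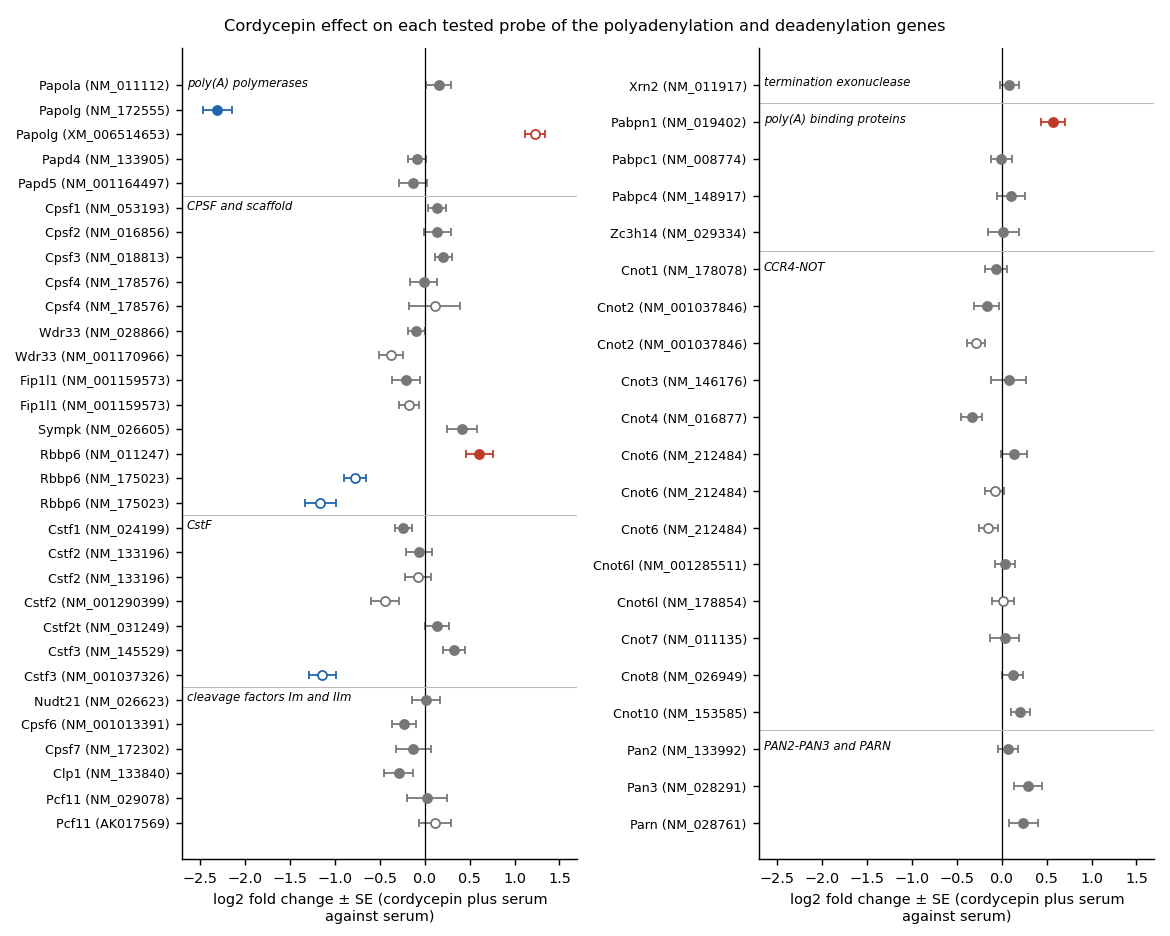
Log2 fold change with its standard error for each of the 52 tested probes, cordycepin plus serum against serum, grouped by role and named by gene and transcript accession. Filled points are the brightest probe of a gene and open points its other probes. Red and blue mark probes called higher and lower, and grey marks probes not called. Papolg, Rbbp6, Cstf3, Cpsf4 and Cnot6 have probes on both sides of 0, and no probe of the last 2 was called.

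Among the poly(A) polymerases, Papolg stood out. It encodes poly(A) polymerase gamma, a nuclear enzyme related to the canonical polymerase Papola. Its probe for the RefSeq mRNA NM_172555 (mm9 chr11:23762935-23762994, minus strand) read 0.67 and 0.54 on the arrays without serum, 0.73, 0.77 and 0.91 with serum, and −1.71, −1.66 and −1.15 with cordycepin plus serum. The 3 cordycepin arrays were thus below all 5 other arrays. The change was −2.31 ± 0.16 (SE, adjusted p 4.83e-05), or 4.97-fold lower than with serum. Another Papolg probe, designed on the predicted longer transcript XM_006514653 (mm9 chr11:23760198-23760257, minus strand), lies 2737 bp further towards the 3′ end of the gene. It read −1.83 and −1.57 without serum, −1.85, −1.92 and −1.84 with serum, and −0.64, −0.67 and −0.62 with cordycepin plus serum. Here the cordycepin arrays were above all others, with a change of 1.23 ± 0.11 (adjusted p 0.000126), or 2.34-fold higher. Whether the NM_172555 probe lies in sequence that the predicted transcript shares was not analysed here. The last 30 of the 60 bases of each probe are shown because they identify the stretches that moved apart.
Papolg NM_172555: gcagaaataagcagtggattttattgaaac
Papolg XM_006514653: ttagttttgtcttattttataattgtatac

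The other polymerases did not pass the test. Papola, which adds most nuclear poly(A) tails, read 1.12 and 1.40 without serum, 1.26, 1.29 and 1.16 with serum, and 1.60, 1.36 and 1.21 with cordycepin plus serum. These values overlap, and its change of 0.15 had a 95% interval of −0.16 to 0.47. Papd4, a cytoplasmic polymerase, and Papd5, which tags nuclear RNA for decay, differed by −0.09 ± 0.11 and −0.13 ± 0.16.

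In CPSF and its scaffold, Rbbp6 was called in both directions, depending on the probe. Rbbp6 is a large RING finger protein of the 3′ end processing complex. The array carries a probe for its transcript variant 1 (NM_011247, mm9 chr7:130145876-130145935, plus strand) and a pair of probes for the short variant 2 (NM_175023), at chr7:130123327-130123386 and chr7:130122108-130122167, which lie 22549 and 23768 bp upstream. The variant 1 probe read 1.58 and 1.80 without serum, 2.06, 1.85 and 1.78 with serum, and 2.54, 2.71 and 2.27 with cordycepin plus serum, a change of 0.61 ± 0.15 (adjusted p 0.0229). All cordycepin arrays were above all others. The nearer variant 2 probe read −1.23 and −1.24 without serum, −0.69, −1.01 and −0.81 with serum, and −1.66, −1.48 and −1.69 with cordycepin plus serum, a change of −0.78 ± 0.12 (adjusted p 0.00263). The farther one read −0.04 and −0.23, then 0.01, −0.22 and −0.04, then −1.61, −1.04 and −1.10, a change of −1.16 ± 0.17 (adjusted p 0.00169). Both variant 2 probes were thus lower on every cordycepin array than on any other. The call of the variant 1 probe was lost without the array of serum replicate 2 or 3. It was also lost without that of cordycepin plus serum replicate 1 or 2, with adjusted p up to 0.0807 in these cases. Both variant 2 probes kept their calls, at an adjusted p of at most 0.0132. The last 30 bases of the probes, in order from the 5′ end of the gene, are shown because these probes moved in opposite directions. Whether the variant 2 probes lie in sequence that variant 1 shares was not analysed here.
Rbbp6 variant 2, farther probe: cacaatcaccctttttctacacaattgctt
Rbbp6 variant 2, nearer probe: cccacttttggataaatgagttttttgggg
Rbbp6 variant 1: ttggggtggagtttactgtactgtgaaatt

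The other 7 CPSF and scaffold genes were not called on any probe. They include Cpsf3, the endonuclease, at 0.20 ± 0.09, Cpsf1, the largest subunit, at 0.14 ± 0.10, and the hexamer readers Wdr33 and Cpsf4 at −0.10 ± 0.10 and −0.01 ± 0.16. The scaffold protein Sympk had the largest change among their brightest probes, at 0.42 ± 0.17 (adjusted p 0.13). A second probe of Cpsf4, for the same transcript, was at 0.11 ± 0.28. Wdr33 has a probe for another transcript, NM_001170966, and this read −0.38 ± 0.14 (adjusted p 0.101), with all cordycepin arrays below all serum arrays. Such separation was common in this comparison. Of the 30859 probes tested, 7724 had all cordycepin arrays above all serum arrays and 4301 had them all below. On the brightest probes of the 38 genes, these counts were 6 and 4.

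In CstF, which binds the GU-rich element downstream of the cut, none of 4 genes was called on its brightest probe, but the other probe of Cstf3 was. The product of Cstf3 is the bridging subunit of the factor, and the gene is known for a short transcript that ends at a poly(A) site inside an early intron. Its variant 1 probe (NM_145529, mm9 chr2:104505308-104505367, plus strand) read 2.54 and 2.62 without serum, 2.85, 2.66 and 2.70 with serum, and 2.98, 3.26 and 2.95 with cordycepin plus serum, a change of 0.33 ± 0.12 (adjusted p 0.108). The cordycepin arrays were the highest, although this did not pass the test. The variant 3 probe (NM_001037326, chr2:104449520-104449579), 55788 bp upstream, read 1.21 and 1.62 without serum, 2.82, 2.95 and 2.82 with serum, and 1.97, 1.60 and 1.60 with cordycepin plus serum. The serum arrays were above all others. The change with cordycepin was −1.14 ± 0.15 (adjusted p 0.00117), or 2.21-fold lower. Whether the variant 3 probe lies in sequence that variant 1 shares was not analysed here. The last 30 bases of this upstream probe hold ATTAAA, the most common variant of the poly(A) signal, in capitals.
Cstf3 variant 3: ttggagttgcaacaacATTAAAacagtttc
Cstf3 variant 1: ttttcaagggtgtcttgtatgtgccacttg

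ATTAAA occurred on the printed strand in the last 30 bases of 2.74% of all 55681 probes and in 1 of the 55 probes of the machinery. It occurred on the other strand in 1.33% of all probes. The canonical AATAAA was found on the printed strand in 8.16% of all probes and in 2 of the 55, neither among those printed here. On the other strand, where it reads TTTATT, it was found in 1.96% of all probes, the NM_172555 probe of Papolg among them. A match of these letters is a description of the probe and does not show that a site is used.

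The remaining CstF genes were Cstf1 at −0.24 ± 0.10, the RNA-binding subunit Cstf2 at −0.06 ± 0.15 and its intronless relative Cstf2t at 0.13 ± 0.13. The upstream probe of Cstf2 (NM_001290399) read −0.44 ± 0.15 (adjusted p 0.0897). The 5 genes of cleavage factors Im and IIm lay between −0.29 and 0.02, with none called. Of these, Nudt21, the subunit that binds UGUA, was at 0.01 ± 0.16, and Clp1, an RNA kinase, at −0.29 ± 0.16. Pcf11, which couples 3′ end formation to termination, was at 0.02 ± 0.22. The nuclear exonuclease Xrn2, which degrades the RNA left behind after the cut, was at 0.08 ± 0.11.

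Pabpn1, the nuclear protein that coats the growing tail, was higher with cordycepin. Its probe (NM_019402, mm9 chr14:55516049-55516108, plus strand) ends in the bases printed below. It read 5.85 and 6.02 without serum, 5.93, 5.98 and 5.73 with serum, and 6.39, 6.66 and 6.29 with cordycepin plus serum, with no overlap between the cordycepin arrays and the others. The change of 0.57 ± 0.14 (adjusted p 0.0204) corresponds to 1.48-fold. It was lost when the array of serum replicate 1 or 3, or of cordycepin plus serum replicate 2, was left out (adjusted p up to 0.0766).
Pabpn1 NM_019402: ttaacagcaggccccggggtcgaatctaca

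Pabpc1, the main cytoplasmic poly(A) binding protein, read 7.96 and 7.71 without serum, 7.79, 7.77 and 7.92 with serum, and 7.70, 7.89 and 7.87 with cordycepin plus serum. These values overlap in full, and the change was −0.00 with a 95% interval of −0.28 to 0.27. Pabpc4 and the zinc finger protein Zc3h14 differed by 0.10 ± 0.15 and 0.02 ± 0.17.

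**Figure D2:**
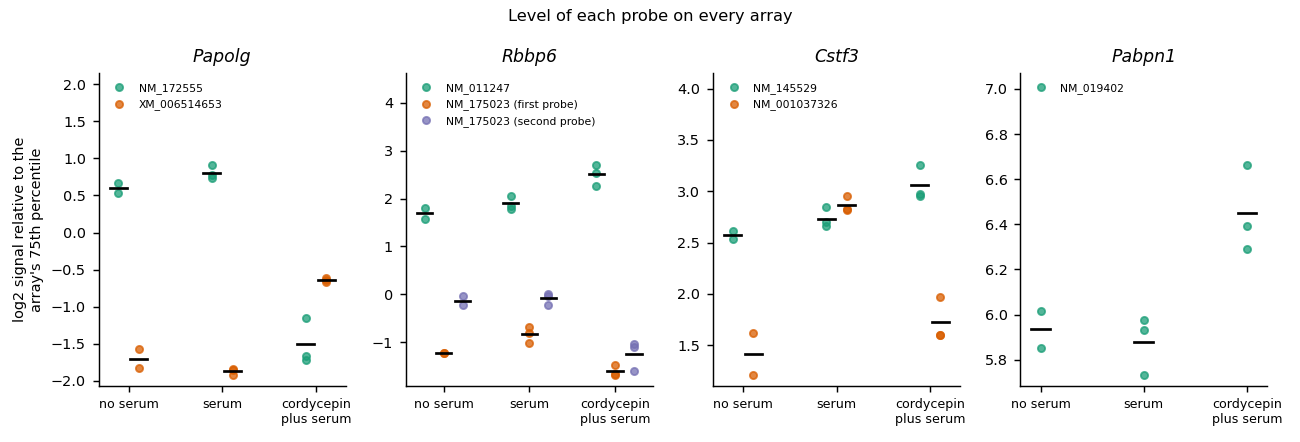
Level of each probe of Papolg, Rbbp6, Cstf3 and Pabpn1 on every array, as log2 signal relative to the array's 75th percentile, with a scale for each gene. Points are arrays (2 without serum, 3 with serum, 3 with cordycepin plus serum) and bars are group means. The first and second probes of Rbbp6 NM_175023 are the nearer and the farther one, and levels of different probes are not comparable with each other.

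The deadenylases showed no called change with cordycepin. In CCR4-NOT, the main cytoplasmic deadenylase, the 9 genes ranged from −0.34 to 0.20 around a median of 0.03. Its catalytic subunit Cnot6 read 4.69 and 4.82 without serum, 4.91, 4.86 and 4.89 with serum, and 5.32, 4.88 and 4.87 with cordycepin plus serum. The values overlap, since 1 cordycepin array was above the rest. Cnot7, another catalytic subunit, read −0.72 and −0.95, then −0.83, −0.76 and −0.73, then −1.07, −0.45 and −0.71. The changes were 0.14 (95% interval −0.19 to 0.47) for Cnot6 and 0.03 (−0.35 to 0.41) for Cnot7. The other probes of Cnot6 were on the opposite side of 0, at −0.08 ± 0.10 and −0.15 ± 0.11, and neither was called. The scaffold Cnot1 was at −0.06 ± 0.12, and the ubiquitin ligase Cnot4 at −0.34 ± 0.12 (adjusted p 0.0936). The probe named Cnot3 is placed on chromosome 3 in mm9, whereas RefSeq puts the gene on chromosome 7, so that its value of 0.08 ± 0.20 may not refer to this gene. Pan2 and Pan3, the catalytic and the RNA-binding subunit of PAN2-PAN3, were at 0.07 ± 0.11 and 0.29 ± 0.16, and the poly(A)-specific ribonuclease Parn at 0.24 ± 0.16.

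Over all 52 probes, 3 were called higher and 4 lower, 7 in all, beside 19.4% of all probes. These 7 probes belong to Papolg, Rbbp6, Cstf3 and Pabpn1. With the arrays centred on spike-in probes, the NM_172555 probe of Papolg kept its call and the other 6 lost theirs at changes of similar size, such as 1.17 for the 3′ probe of Papolg (adjusted p 0.283), −1.22 for the farther variant 2 probe of Rbbp6 (adjusted p 0.233) and −1.20 for the variant 3 probe of Cstf3 (adjusted p 0.253). Since probes of a gene moved apart, the change of the most 3′ tested probe was compared with that of each other tested probe of the same gene within each array, a test chosen after the data were seen. Any scaling of a whole array cancels in this difference. It could be made for 12 pairs of probes in 9 of the genes. With cordycepin the 3′ probe changed differently from the upstream probe in 4 of the 12 pairs, in 3 of the 9 genes, while 10.5% of 8278 such pairs in all genes were called. In Papolg the difference was 3.54 ± 0.18 on the log2 scale (adjusted p 0.000148), an 11.6-fold change in the ratio of the probes. In Rbbp6 it was 1.38 ± 0.13 and 1.77 ± 0.22 for the nearer and the farther variant 2 probe (adjusted p 0.000933 and 0.0026). In Cstf3 it was 1.47 ± 0.19 (adjusted p 0.00316). The 3′ probe gained relative to the upstream probe in all 4 called pairs, and both Rbbp6 pairs share their 3′ probe. The direction of the called pairs in all genes was not counted. The other 8 pairs, in Wdr33, Fip1l1, Cstf2, Cnot2, Cnot6 and Cnot6l, ranged from −0.22 to 0.38, the highest being the pair of Cstf2 that lies 10713 bp apart (adjusted p 0.0653). Cpsf4 and Pcf11 also have several tested probes, but they could not be paired because a probe of each is listed as unmapped.

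**Figure D3:**
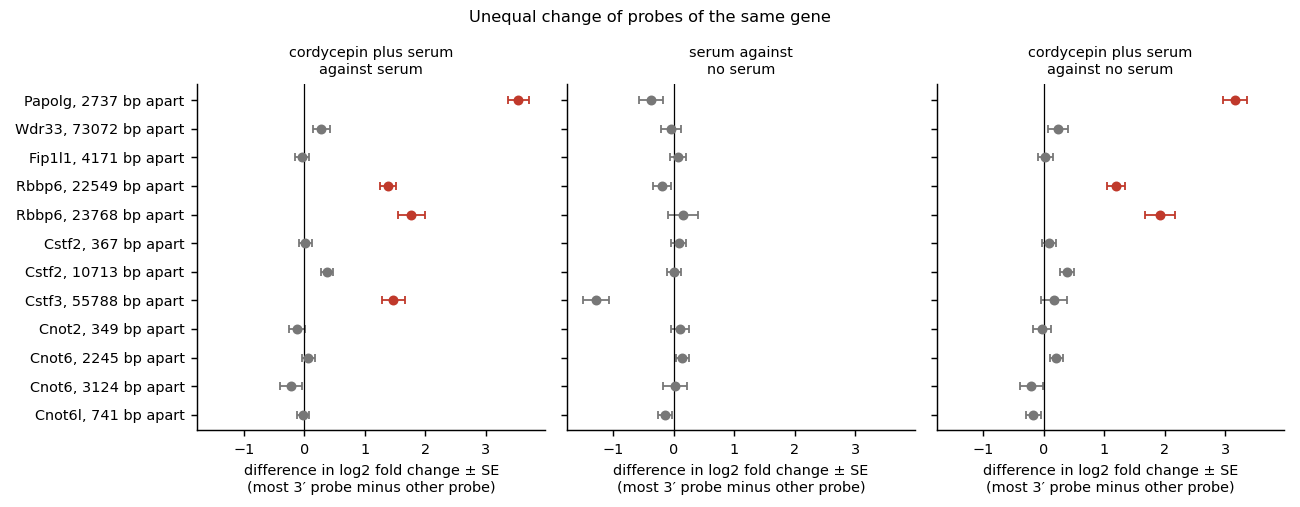
Difference in log2 fold change between the most 3′ tested probe and another tested probe of the same gene, with its standard error, for the 12 pairs and the 3 comparisons. Labels give the distance between the probes in bp, and red marks an adjusted p under 0.05. Papolg, Rbbp6 and Cstf3 lie to the right of 0 with cordycepin against serum, and no pair is called with serum alone.

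The response to serum itself was examined next, by comparing serum with no serum. As the use of DMSO without serum is not stated, vehicle and serum may both differ in this comparison. None of the 38 genes was called on its brightest probe by limma, beside 1.37% of RefSeq mRNA genes. Beside 6.31% of RefSeq mRNA genes, 1 of the 38 had an unadjusted p under 0.05. This was Pcf11 at 0.63 ± 0.25, with overlapping arrays. The median change was −0.01, beside −0.00 for RefSeq mRNA genes, and the 95% interval lay within 2-fold for 37 of the 38 genes. The latter held for 91.8% of RefSeq mRNA genes and 97.6% of those above their median level. Of the genes with values on every array above, Papola was at −0.02 ± 0.15, Papolg at 0.20 ± 0.18, Pabpn1 at −0.05 ± 0.15, Pabpc1 at −0.01 ± 0.13, Cnot6 at 0.13 ± 0.16 and Cnot7 at 0.06 ± 0.18. Probes of a gene lay on both sides of 0, none of them called, in Papolg (3′ probe at −0.17 ± 0.12), Cpsf4 (−0.08 ± 0.17 and 0.07 ± 0.32), Fip1l1 (0.05 ± 0.17 and −0.02 ± 0.13), Cnot2 (−0.06 ± 0.16 and 0.03 ± 0.11) and Cnot6l (0.04 ± 0.13 and −0.11 ± 0.14).

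Of the 52 probes, 1 was called with serum, beside 2.33% of all probes. This was the upstream probe of Cstf3, for variant 3, which rose by 1.45 ± 0.17 (adjusted p 0.00524), or 2.73-fold, with its 3 serum arrays all above the 2 arrays without serum. These groups did not overlap for 23.1% of all tested probes. Centred on spike-in probes the upstream probe of Cstf3 was at 1.10 and was not called (adjusted p 0.855). The variant 1 probe of the same gene was at 0.16 ± 0.14. The difference between the 2 probes was −1.29 ± 0.21, which was not called over all pairs (adjusted p 0.0866). No pair of the 12 was called with serum, beside 0.326% of all pairs. The Rbbp6 variant 2 probes were at 0.40 ± 0.14 for the nearer one (adjusted p 0.283) and 0.05 ± 0.19 for the farther one.

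Cordycepin plus serum was finally set against no serum, to see where the transcripts stood relative to starved cells. This comparison shares its arrays with both others. Called higher were 2 of 38 genes, Rbbp6 (variant 1) at 0.81 ± 0.17 and Cstf3 (variant 1) at 0.49 ± 0.14 (adjusted p 0.0126 and 0.0492), beside 5.41% of RefSeq mRNA genes. Called lower were 2 genes, Papolg at −2.11 ± 0.18 and Cnot4 at −0.48 ± 0.13 (adjusted p 0.000192 and 0.047), beside 5.57%. Among the RefSeq mRNA genes above their median level, 1.34% were called higher and 4.01% lower. Cnot4 read 1.31 and 1.15 without serum, 1.20, 0.97 and 1.11 with serum, and 0.76, 0.88 and 0.62 with cordycepin plus serum, the last below all others. The cordycepin arrays and those without serum did not overlap for 44.3% of all tested probes. The calls of Cnot4 and Cstf3 were lost whichever of the 8 arrays was left out, with adjusted p up to 0.257 and 0.227, and that of Rbbp6 without no serum replicate 1 (adjusted p 0.101). Pabpn1 was at 0.51 ± 0.15 (adjusted p 0.0586), Papola at 0.13 ± 0.15, Pabpc1 at −0.01 ± 0.13, Cnot6 at 0.27 ± 0.16 and Cnot7 at 0.10 ± 0.18. The median over the 38 genes was 0.05, beside 0.05 for RefSeq mRNA genes.

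Probe by probe, 6 of 52 were called against no serum, beside 15.2% of all probes. The 3′ probe of Papolg was higher by 1.05 ± 0.12 (adjusted p 0.000732) and the farther variant 2 probe of Rbbp6 lower, at −1.11 ± 0.19 (adjusted p 0.00518), with the nearer one at −0.38 ± 0.14 (adjusted p 0.118). Uncalled probes of Cpsf4 (−0.09 ± 0.17 and 0.18 ± 0.32), Cnot6 (0.07 ± 0.11 and −0.14 ± 0.12 beside its brightest) and Cnot6l (0.07 ± 0.13 and −0.10 ± 0.14) also lay on both sides of 0. The upstream probe of Cstf3, which had been called higher with serum, was at 0.31 ± 0.17 (adjusted p 0.297). No difference from starved cells was thus called at this probe. The 3′ and upstream probes differed in 3 of the 12 pairs, beside 6.73% of all pairs. These were the pair of Papolg, at 3.16 ± 0.20 (adjusted p 0.000438), and both pairs of Rbbp6, at 1.19 ± 0.15 and 1.93 ± 0.24 (adjusted p 0.00402 and 0.00417), while the pair of Cstf3 was at 0.18 ± 0.21 (adjusted p 0.779).

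The wider pathway was described with 7 lists of 102 further genes, of which 98 were tested. Earlier results of these data were known when the lists were made, so their counts are a description. With cordycepin against serum, 3 of the 98 were called higher and 14 lower, beside 6.29% and 8.13% of RefSeq mRNA genes, around a median of −0.04 beside 0.05. The same shares apply to each list that follows. Of the 16 other deadenylase subunits and recruiters, 6 were lower and none higher. Btg2, an antiproliferative protein that recruits CCR4-NOT, rose by 3.44 ± 0.20 with serum and was lower with cordycepin, at −3.06 ± 0.18 (adjusted p 0.000195 and 2.41e-05). Its levels were 1.64 and 1.11 without serum, 4.87, 4.77 and 4.81 with serum, and 1.51, 1.69 and 2.06 with cordycepin plus serum. The cordycepin arrays were thus near those without serum, with a difference of 0.37 ± 0.20 (adjusted p 0.287). Ccrn4l, or nocturnin, a relative of the CCR4 deadenylases with circadian expression, rose by 2.83 ± 0.33 with serum and was lower with cordycepin, at −2.24 ± 0.30 (adjusted p 0.00509 and 0.00111). The remaining 4, Cnot11, Pde12, Toe1 and Btg1, were between −0.84 and −0.42. Leaving out 1 array ended the call of Cnot11 in 6 of 8 cases, of Btg1 in 4 and of Pde12 in 2.

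Among 8 terminal nucleotidyltransferases outside the 39, 3 were lower with cordycepin. Fam46b, a non-canonical poly(A) polymerase, rose by 1.04 ± 0.21 with serum (adjusted p 0.0457) and was lower with cordycepin, at −1.91 ± 0.19 (adjusted p 0.000208), with Papd7 and Tut1 at −0.66 ± 0.15 and −0.63 ± 0.16, each call of these 2 being lost in 4 of 8 cases. Pabpc1l, a relative of Pabpc1, was higher by 1.55 ± 0.23 (adjusted p 0.00211) and was the single call among 10 poly(A) binding protein relatives. Of 25 nuclear 3′ end cofactors, 1 was higher (Zfp473) and 2 were lower, Leo1 and Scaf8. The last, which binds the tail domain of RNA polymerase II, was at −1.12 ± 0.11 (adjusted p 0.000239). Of 16 decapping and 5′ decay genes 2 were lower (Dcp1a and Edc3), of 19 exosome genes 1 was higher (Exosc6) and 1 lower (Exosc3), and of 4 genes binding the cytoplasmic polyadenylation element none was called. The calls of Dcp1a and Leo1 were lost in 5 and 3 of 8 cases.

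With serum alone, 3 of the 98 genes were higher and none lower, beside 1.24% and 0.127% of RefSeq mRNA genes, and these were Btg2, Ccrn4l and Fam46b. The call of Fam46b was lost in 7 of 8 cases, all but that without cordycepin plus serum replicate 1, and the call of Ccrn4l without no serum replicate 1, which left 1. Against no serum, cordycepin plus serum gave 3 higher and 6 lower, beside 5.41% and 5.57%. The 3 with at least 2-fold changes were Pabpc1l at 1.46 ± 0.26, Ppp1r10, a phosphatase subunit tied to termination, at 1.42 ± 0.27, and Scaf8 at −1.10 ± 0.12 (adjusted p 0.00684, 0.00842 and 0.000709). The call of Pabpc1l was lost without no serum replicate 2 and that of Ppp1r10 without no serum replicate 1.

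**Figure D4:**
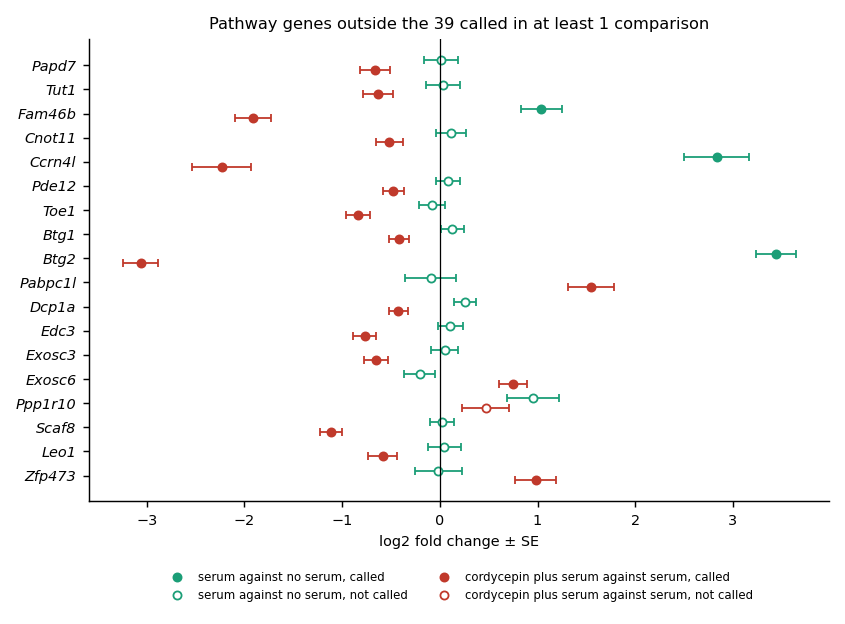
Log2 fold change with its standard error for the pathway genes outside the 39 that were called in at least 1 comparison. Green is serum against no serum, red is cordycepin plus serum against serum, and filled points passed an adjusted p under 0.05. Btg2, Ccrn4l and Fam46b are right of 0 with serum and left of 0 with cordycepin, and these 2 comparisons share the serum arrays.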

How the data were processed

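Scanner output of 8 one-colour Agilent arrays was deposited as linear intensity values of single spots. The authors used Agilent Feature Extraction 10.7.3.1, per the file headers, which subtracts background and marks outlier spots, and probe positions refer to mm9. The study names limma and states no normalisation. Here, outlier and control spots were left out, log2 processed signals were averaged per probe, and each array's 75th percentile was subtracted, so a change shared by most transcripts is not seen. Groups were compared with limma 3.58.1 in R 4.3.3, with all 8 arrays sharing a spread and no covariate. P-values are two-sided and adjusted by Benjamini-Hochberg over the 30859 probes tested, or over the 8278 probe pairs. The code was tested on simulated data. A batch test by slide or scan was not possible, as all arrays lay on 1 slide read in 1 scan, and no spot was saturated. By accession, 54 of the 55 probes matched the RefSeq table of GRCm38.p6, none of whose coordinates were used. The members and lists were chosen with earlier results of these data known. Of the leukocyte markers, 1 is not reported here. Values per array are given for genes called on their brightest probe and for Papola, Papolg, Pabpn1, Pabpc1, Cnot6 and Cnot7, genes whose probes differ in call or sign are named with each probe, and list genes are named with values when called with at least 2-fold change. Alternatives covered background correction, normalisation, the filter on dim probes, the gene summary, the call rule, the arrays fitted, blocks and leaving out each array. The number of arrays limits the precision.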

Additional observations from a re-analysis of the deposited data

How the results depend on the processing

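Of 2340 recomputed values of single probes of the machinery, 2288 kept their side of the threshold, 47 lost a call, 5 gained one and none reversed. Most of these values belong to probes without a call in the main fit, which could not lose one. The main fit called 7 of 52 probes with cordycepin against serum, 1 with serum and 6 with cordycepin plus serum against no serum. Of 504 recomputed probe differences, 503 kept their side, and all called differences of Papolg, Rbbp6 and Cstf3 kept their call under the 14 alternatives run for them. Centring on spike-in probes is among the 14 and could not alter a difference, as array scaling cancels. The fit without a filter on dim probes was not run for differences. The fall of the NM_172555 probe of Papolg was called under all 15 alternatives, from −2.49 to −1.95. Centring on spike-in probes ended the other 6 calls among probes with cordycepin against serum, Rbbp6 variant 2 (nearer probe) among them at −0.83 (adjusted p 0.803). Centring on spike-in probes left 1 member called with cordycepin against serum and 1 against no serum, and 3 and 0 genes of the pathway lists. It moved the median of all probes to 0.03, −0.36 and −0.33 for cordycepin plus serum against serum, serum against no serum and cordycepin plus serum against no serum, and the median of the members with it, to −0.024, −0.361 and −0.357. Without a filter on dim probes, 1 member was called in each cordycepin comparison, with 10 and 4 list genes. Requiring at least 2-fold change gave 1 and 1 members and 5 and 3 list genes, with the adjusted p and equally with the unadjusted p of the study's legend. Taking the mean of a gene's tested probes gave 1 higher and 3 lower members with cordycepin against serum, with Rbbp6 turned to lower, added 1 member with serum (Cstf3) and left 2 with cordycepin plus serum against no serum, as did fitting only the 2 groups compared. Of the medians against no serum with cordycepin, normexp background correction gave 0.0055 and quantile normalisation 0.013. With the replicate block, the median with serum was 0.035, members called numbered 3, 0 and 3 and list genes called 14, 2 and 7 in the order of the comparisons above, and Cnot4 and Cstf3 lost their calls against no serum while Pabpn1 gained one. Deviations from the group means correlated at −0.17 to 0.23 between arrays with the same replicate number. With 2 or 3 arrays per group, this cannot show whether equal numbers mark a shared culture or batch. Leaving out each array in turn gave 1 to 3 members called for cordycepin against serum, 0 with serum and 1 to 2 for cordycepin against no serum, with 12 to 16, 1 to 3 and 4 to 11 list genes and medians of −0.043 to 0.085, −0.034 to 0.060 and −0.013 to 0.107. The cause of these shifts was not tested. Precision is limited by the 2 or 3 arrays per group, and Papolb was not measured above background.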
